A study of Mus musculus with 18 samples.

Results

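Genes of the basophil, mast cell and eosinophil fates were followed through neutrophil differentiation in mouse bone marrow. They were *Cpa3*, *Mcpt8*, *Prss34*, *Ms4a2*, *Fcer1a*, *Prg2*, *Epx* and *Hdc*. They were picked by name, as genes of the granulocyte fates that a progenitor on the neutrophil path does not take, and all 8 were found among the 34896 genes of the expression table. RNA-seq covered granulocyte-monocyte progenitors (GMP), pre-neutrophils (preNeu) and mature neutrophils (matNeu), with 3 libraries of each. ChIP-seq covered the chromatin remodeler CHD4 in GMPs from WT and *Gfi1*-/- mice, and the histone mark H3K4me2 in GMP, preNeu and matNeu cells. ATAC-seq, which marks open chromatin, covered preNeu and matNeu cells, and each ChIP-seq or ATAC-seq group was 1 library. All mice were C57BL/6, 6 to 12 weeks old. Every cell was WT except in the second CHD4 library, from mice without GFI1, a transcriptional repressor of granulocyte development.

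GMPs were sorted as lineage-negative, cKIT+, SCA1-, CD16/32+ and CD34+ cells. The preNeu and matNeu cells were sorted as MAC-1+ GR1+ cells, the first by cKIT and CXCR4 and the second by CXCR2, while the sources used here give SiglecF, an eosinophil surface protein, both as present and as absent on the mature cells. No stated gate used the IgE receptor. In such bulk samples, fewer cells of a type and less RNA per cell cannot be told apart. Nothing says whether the 3 libraries of a cell type came from separate mice, so that p-values measure the spread between these libraries, which may be technical.

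Basophils, mast cells and eosinophils arise in the same marrow as neutrophils and carry granules of their own. Basophils and mast cells bind IgE through a high-affinity receptor and release histamine and proteases, and eosinophils store basic proteins and a peroxidase. Transcription factors of the GATA family are known to act in all of these lineages, and CHD4 is the ATPase of the NuRD complex, which remodels nucleosomes and removes histone acetylation.

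The sequences before 4 of the start sites are shown so that *Cpa3*, *Prss34* and *Ms4a2*, which were lowest in matNeu cells, can be read beside *Hdc*, which was highest there. The RefSeq promoter table (build GRCm38.p6) held an entry for 7 of the 8 genes, and *Prg2* had none. Within the 250 bases before the start, GATAA (the GATA core) was found on either strand in 4 of 7 promoters, beside 22.6% of all 32851 promoters in the table. AAATCA (the GFI1 core) was found in 3 of 7, beside 12.4%, and GAGGAAGT (SPI1) in 0 of 7, beside 2.44%. In the lines that follow, each in the gene's own direction, capitals mark GATAA or its reverse complement and AAATCA or its reverse complement. *Cpa3* held both cores, 45 and 63 bases before the start, *Prss34* held GATAA 30 bases before it, *Ms4a2* held the GATA core 3 times and *Hdc* held AAATCA 109 bases before it. Of the promoters not printed, that of *Epx* held AAATCA 107 bases before the start and no GATAA. That of *Mcpt8* held neither core, and that of *Fcer1a* held GATAA 92 bases before the start. *Epx*, *Mcpt8* and *Fcer1a* also had their lowest levels in matNeu cells, so genes lowest there differed in their cores. Because *Hdc* alone was highest there, these promoters cannot show whether the cores divide the genes by their pattern. A match is a description of the letters and not of a bound factor.
Cpa3 promoter (chr3:20242182-20242431, minus strand): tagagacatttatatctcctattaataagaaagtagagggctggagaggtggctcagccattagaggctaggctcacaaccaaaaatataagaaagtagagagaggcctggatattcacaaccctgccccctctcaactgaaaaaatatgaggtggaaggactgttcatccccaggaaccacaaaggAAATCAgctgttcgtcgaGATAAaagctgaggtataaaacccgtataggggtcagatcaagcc
Prss34 promoter (chr17:25298144-25298393, plus strand): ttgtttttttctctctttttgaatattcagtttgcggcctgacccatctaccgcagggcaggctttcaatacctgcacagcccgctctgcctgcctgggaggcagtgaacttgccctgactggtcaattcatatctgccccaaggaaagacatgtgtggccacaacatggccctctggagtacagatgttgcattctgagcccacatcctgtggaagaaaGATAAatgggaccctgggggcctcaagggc
Ms4a2 promoter (chr19:11623720-11623969, minus strand): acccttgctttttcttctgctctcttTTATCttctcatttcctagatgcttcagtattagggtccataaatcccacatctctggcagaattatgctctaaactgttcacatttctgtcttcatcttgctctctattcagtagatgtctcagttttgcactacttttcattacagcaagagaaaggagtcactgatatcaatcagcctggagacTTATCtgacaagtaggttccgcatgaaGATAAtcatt
Hdc promoter (chr2:126618679-126618928, minus strand): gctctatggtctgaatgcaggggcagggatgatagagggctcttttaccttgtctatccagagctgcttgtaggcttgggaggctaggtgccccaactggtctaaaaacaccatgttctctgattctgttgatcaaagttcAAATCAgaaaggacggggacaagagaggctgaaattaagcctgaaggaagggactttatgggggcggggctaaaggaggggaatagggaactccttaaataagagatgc

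*Cpa3* encodes carboxypeptidase A3 of basophil and mast cell granules, and *Mcpt8* and *Prss34* encode serine proteases known from basophils. *Cpa3* stood at 274, 222 and 209 TPM (a transcript level scaled by transcript length and by library total) in the GMP libraries. It stood at 30.1, 18.0 and 25.4 TPM in the preNeu libraries and at 0.855, 4.33 and 0 TPM in the matNeu libraries. The groups did not overlap, and each later stage was lower. On the log2(TPM + 1) scale, the limma change was -3.23 ± 0.48 from GMP to preNeu cells (SE, 3 libraries each, adjusted p = 2.23e-04). It was -3.54 ± 0.48 from preNeu to matNeu cells (adjusted p = 7.94e-05). Here and below, the SE of a limma change rests on 1 spread per gene, shared over all 9 libraries of the 3 cell types.

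*Mcpt8* behaved otherwise between the first stages. Its levels were 117, 86.6 and 88.5 TPM in GMPs, 102, 55.3 and 71.5 TPM in preNeu cells and 0.481, 2.05 and 1.01 TPM in matNeu cells. GMP and preNeu libraries overlapped, and the change between them was not called (-0.38 on the log2 scale, 95% confidence interval -1.03 to 0.28, adjusted p = 0.304), whereas matNeu libraries lay far below both (-5.17 ± 0.30 against preNeu, adjusted p = 1.01e-07).

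*Prss34* had its highest level at the middle stage. It stood at 182, 99.3 and 164 TPM in GMPs, 341, 213 and 270 TPM in preNeu cells and 0, 6.14 and 1.72 TPM in matNeu cells. Every preNeu library was above every GMP library, yet the change was not called over all 9 libraries (0.90 ± 0.56, interval -0.34 to 2.15, adjusted p = 0.192). When GMP and preNeu libraries were fitted without the matNeu libraries, whose values spread from 0 to 6.14 TPM, the change of 0.90 passed the test (adjusted p = 0.0230). From preNeu to matNeu cells *Prss34* fell by 6.65 on the log2 scale (-6.65 ± 0.56, adjusted p = 1.87e-06). In preNeu cells it was among the more abundant transcripts, with 1.28% of all genes above its mean.

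The proportions among the 3 proteases within a library did not overlap between the first stages. The ratio of *Cpa3* to *Mcpt8* was 2.35 to 2.57 in the GMP libraries and 0.294 to 0.355 in the preNeu libraries. The ratio of *Prss34* to *Mcpt8* was 1.15 to 1.86 in GMPs and 3.32 to 3.86 in preNeu cells. For both ratios, which were chosen after their values were seen, an exact two-sided permutation test gave p = 0.1, the smallest that 3 libraries against 3 can give. Groups that do not overlap always give this value, so the test adds nothing to the ranges.

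**Figure D1:**
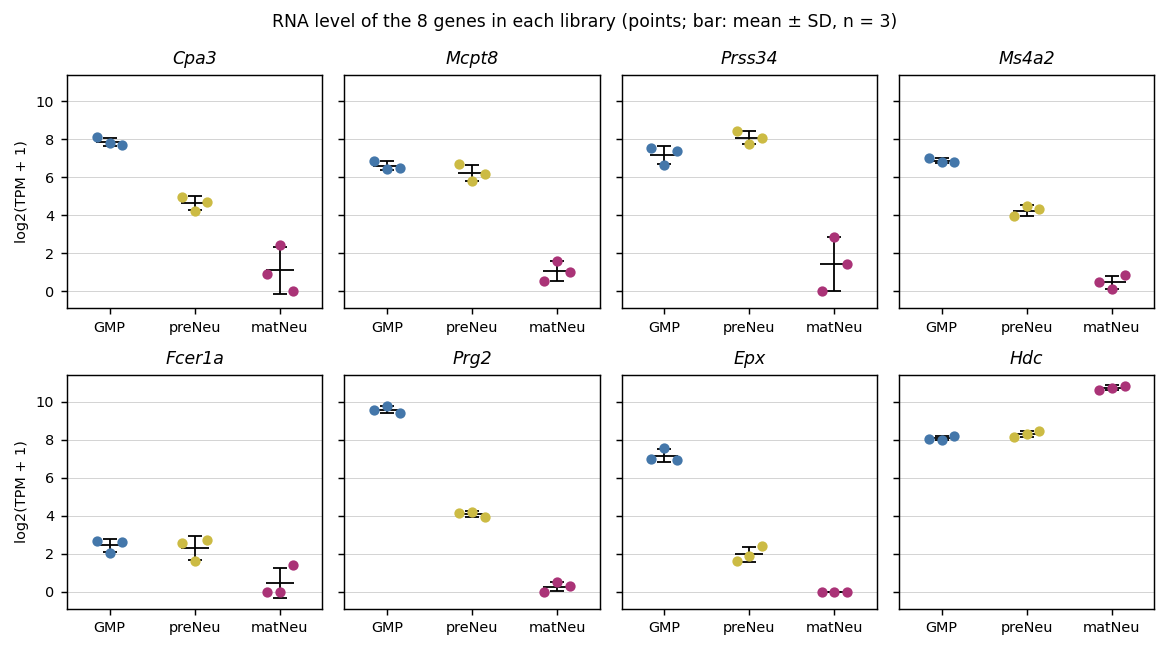
Level of each of the 8 genes as log2(TPM + 1) in the 9 RNA-seq libraries, with GMP, preNeu and matNeu on the horizontal axis, 1 point per library and the mean ± SD as a bar. *Hdc* is highest in matNeu cells, the other 7 genes are lowest there, and *Prss34* is higher in each preNeu library than in any GMP library.

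*Ms4a2* encodes the beta chain and *Fcer1a* the IgE-binding alpha chain of the high-affinity receptor. *Ms4a2* was measured at 130, 112 and 109 TPM in GMPs, 14.3, 21.1 and 19.4 TPM in preNeu cells and 0.391, 0.110 and 0.793 TPM in matNeu cells. The stages did not overlap, and both steps down were called, with log2 changes of -2.63 ± 0.24 (adjusted p = 7.25e-06) and -3.76 ± 0.24 (adjusted p = 2.03e-07).

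*Fcer1a* was a low transcript in all libraries. It stood at 5.26, 3.09 and 5.18 TPM in GMPs, 4.95, 2.03 and 5.58 TPM in preNeu cells and 0, 0 and 1.62 TPM in matNeu cells. GMP and preNeu libraries overlapped and their difference of -0.14 was not called (interval -1.12 to 0.84, adjusted p = 0.810). The matNeu libraries lay below both, by -1.97 ± 0.44 against GMP (adjusted p = 0.00181) and -1.83 ± 0.44 against preNeu (adjusted p = 0.00386), but neither call held when each library was centred on its median gene (-0.58, adjusted p = 0.252, and -1.07, adjusted p = 0.0518). In GMPs, *Ms4a2* was thus at 117 ± 11.2 TPM and *Fcer1a* at 4.51 ± 1.23 TPM (SD, n = 3), although both chains belong to 1 receptor.

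The gene of the gamma chain of this receptor moved the other way. *Fcer1g*, the shared gamma chain that also serves IgG receptors of neutrophils, rose from 138 ± 15.8 TPM in GMPs through 410 ± 50.9 TPM (preNeu) to 1018 ± 292 TPM (matNeu) (2.84 ± 0.19 on the log2 scale, matNeu against GMP, adjusted p = 1.40e-07). The kinases *Lyn* and *Syk* rose with it, to 404 ± 48.4 and 296 ± 60.2 TPM in matNeu cells. *Lat2*, an adaptor of mast cell and B cell signalling, stood at 123 ± 18.1 TPM in GMPs, 6.80 ± 4.46 TPM in preNeu and 12.6 ± 2.54 TPM in matNeu cells (matNeu against GMP -3.19 ± 0.35, adjusted p = 8.91e-06). Of the 6 listed genes of IgE receptor signalling, 3 were higher and 3 lower in matNeu cells than in GMPs, beside 22.8% and 54.1% of all genes. With median centring 3 were higher and 1 lower, beside 6023 and 4063 of the 13061 genes tested.

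*Prg2* encodes major basic protein and *Epx* eosinophil peroxidase. *Prg2* was the highest of the 8 in GMPs, with 744, 863 and 671 TPM, and 0.416% of all genes had a higher mean there. It was at 16.5, 17.5 and 14.2 TPM in preNeu cells and at 0, 0.405 and 0.227 TPM in matNeu cells. The first step down was called with a log2 change of -5.48 ± 0.19 (adjusted p = 8.20e-09) and the second with -3.82 ± 0.19 (adjusted p = 3.36e-08).

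*Epx* stood at 126, 186 and 120 TPM in GMPs and at 2.05, 2.71 and 4.27 TPM in preNeu cells, and it was listed at 0 in all 3 matNeu libraries. The change from GMP to preNeu cells was -5.19 ± 0.28 (adjusted p = 1.94e-07). *Prg2* and *Epx* fell together to preNeu cells, and the ratio of *Prg2* to *Epx* was 4.63 to 5.90 in GMPs and 3.32 to 8.05 in preNeu cells, which overlap.

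Other eosinophil genes of a fixed list were mixed, with 5 of 8 tested lower and 2 higher in preNeu cells than in GMPs, beside 44.3% and 14.7% of all genes, and 3 lower and 2 higher with median centring. *Prg3*, a neighbour and homologue of *Prg2*, was at 49.0 ± 5.72 TPM in GMPs and 0.531 ± 0.461 in preNeu cells (-5.08 ± 0.31, adjusted p = 5.42e-07). The eosinophil-associated ribonucleases *Ear6* and *Ear1* were at 21.8 ± 1.54 and 14.7 ± 9.21 TPM in GMPs and under 2 TPM in every later library, whereas *Ear2* rose to 59.4 ± 8.92 TPM in preNeu cells from 18.0 ± 1.27 in GMPs (1.66 ± 0.26, adjusted p = 3.16e-04). These ribonucleases are near-identical copies, and how reads were divided between them is uncertain. *Siglecf* was at 45.3 ± 13.9 TPM in GMPs and 41.7 ± 9.28 in matNeu cells, a change that was not called (adjusted p = 0.755) but became a called rise with the upper quartile (0.80, adjusted p = 0.0164) and with median centring (1.30, adjusted p = 7.62e-04). *Il5ra*, the receptor for IL-5, an eosinophil growth factor, was at 3.28 ± 1.50, 0.482 ± 0.347 and 1.54 ± 1.05 TPM in GMP, preNeu and matNeu cells.

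*Hdc*, histidine decarboxylase, makes histamine from histidine and is known from basophils and mast cells and also from neutrophils. Its level was 262, 255 and 288 TPM in GMPs and 285, 313 and 355 TPM in preNeu cells. In matNeu cells it was 1555, 1703 and 1832 TPM, above every other library, and 0.238% of all genes had a higher mean. The rise was 2.66 ± 0.12 on the log2 scale from GMP to matNeu cells (adjusted p = 5.95e-09) and 2.42 ± 0.12 from preNeu to matNeu cells (adjusted p = 2.63e-08). GMP and preNeu libraries overlapped slightly, with the highest GMP library at 288 and the lowest preNeu library at 285 TPM, and the difference of 0.24 was not called (interval -0.01 to 0.50, adjusted p = 0.0965). It passed the test without preNeu replicate 1 (0.32, adjusted p = 0.0491), with TPM scaled to the upper quartile (0.73, adjusted p = 2.11e-04) and with median centring (0.87, adjusted p = 6.64e-05).

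Several genes around histamine and lipid mediators were also higher in matNeu cells. *Hnmt*, which degrades histamine, rose from 36.5 ± 5.72 TPM in GMPs to 117 ± 15.6 in matNeu cells (1.66 ± 0.16, adjusted p = 2.29e-06), and *Alox5* and *Alox5ap*, which begin leukotriene synthesis, rose to 771 ± 68.7 and 2551 ± 182 TPM. *Slc18a2*, the transporter that loads histamine into granules, was at 30.4 ± 3.79 TPM in GMPs and 19.1 ± 5.83 in matNeu cells (-0.68 ± 0.26, adjusted p = 0.0343), a call that was lost with the upper quartile (0.20, adjusted p = 0.467) and turned with median centring (0.72, adjusted p = 0.0162). *Srgn*, the core protein of granule proteoglycans, was at 1538 ± 206 TPM in GMPs, 448 ± 50.3 in preNeu and 3297 ± 160 in matNeu cells.

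**Figure D2:**
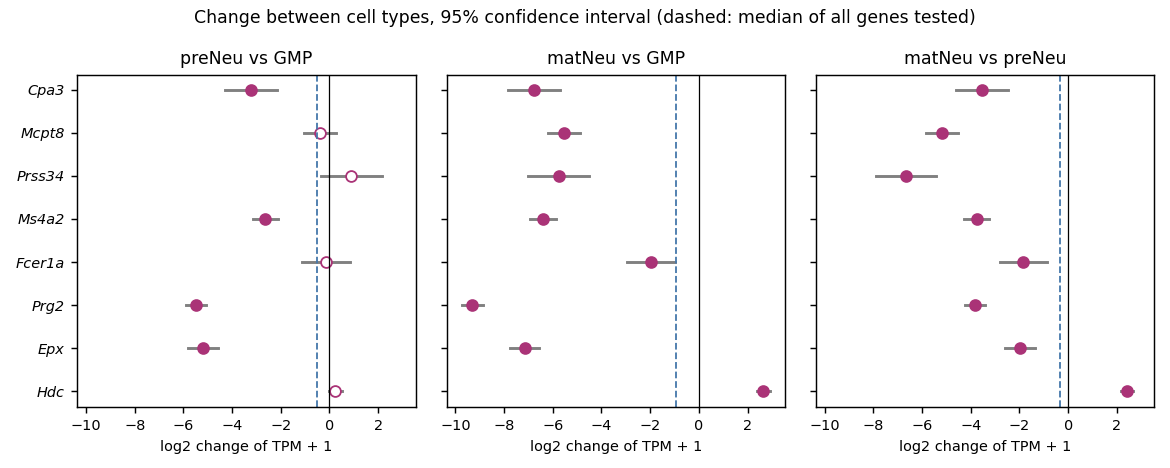
Fitted log2 change of TPM + 1 of each of the 8 genes in the 3 comparisons, with 95% confidence intervals as bars, filled circles where the limma adjusted p was under 0.05 and the median of all genes tested as a dashed line. In preNeu against GMP, 4 of the 8 genes are filled and lie left of the dashed line, and in both comparisons of matNeu cells all 8 are filled, with *Hdc* alone right of 0.

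All 8 passed the filter of at least 1 TPM in at least 3 libraries, each through all 6 GMP and preNeu libraries. From GMP to preNeu cells 4 of the 8 were called lower (*Cpa3*, *Ms4a2*, *Prg2* and *Epx*), beside 44.3% of the 13061 genes tested, and 0 were called higher, beside 14.7%. That count is near the share among all genes. The changes of the 8 fell into 4 from -5.48 to -2.63 and 4 from -0.38 to 0.90, and their median of -1.50, beside -0.52 over all genes, lies in the gap between them. From GMP to matNeu cells 7 of the 8 were lower, beside 54.1% of all genes, and 1 (*Hdc*) was higher, beside 22.8%. From preNeu to matNeu cells the same 7 were lower, beside 39.8%, and *Hdc* was higher, beside 22.9%. The median changes of the 8 in the last 2 comparisons were -6.07 and -3.65, beside -0.92 and -0.32 over all genes.

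The excess of lower genes depended on the scaling of TPM. As deposited, 2976 genes were higher and 7065 lower in matNeu cells than in GMPs, against 4546 and 5420 with the upper quartile and 6023 and 4063 with median centring, where the median of all genes moved to 0.47. From GMP to preNeu cells the numbers were 1925 and 5781, against 2949 and 3761, and 3828 and 3166. From preNeu to matNeu cells they were 2995 and 5202, against 4061 and 4307, and 5530 and 3251. The calls of *Cpa3*, *Mcpt8*, *Prss34*, *Ms4a2*, *Prg2*, *Epx* and *Hdc* in matNeu cells held under both scalings, in the same direction. The uncalled differences of *Mcpt8* and *Fcer1a* between GMP and preNeu cells changed sign under both scalings, to 0.11 and 0.25 with the upper quartile and 0.26 and 0.49 with median centring.

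The summed level of the 8 genes was 1655 to 1841 TPM in GMP, 643 to 796 in preNeu and 1557 to 1838 in matNeu libraries, but its make-up changed throughout. With the upper quartile the mean sum was 1328 TPM in GMPs and 2401 TPM in matNeu cells. Without *Hdc* the sum of the other 7 was 1367 to 1579 TPM in GMPs, 330 to 511 in preNeu cells and 1.73 to 13.0 in matNeu cells. *Prg2* made up 47.1 to 54.8% of that sum in GMPs, and *Prss34* made up 64.6 to 66.7% in preNeu cells. Among matNeu libraries, replicate 2 had the highest level of *Cpa3*, *Mcpt8* and *Prss34*, and its sum of 13.0 TPM stood beside 1.73 and 5.37 TPM in the other two. All 8 genes were called without it as well in both comparisons of matNeu cells.

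**Figure D3:**
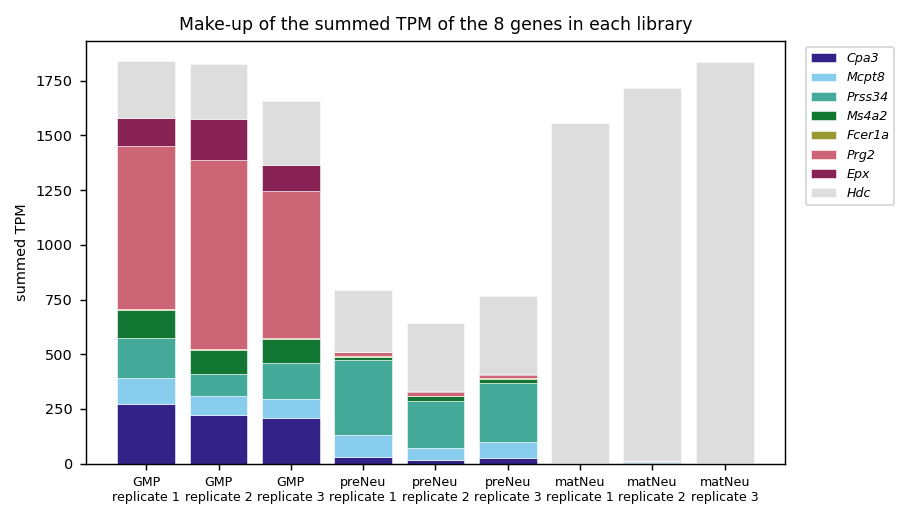
Summed TPM of the 8 genes in each of the 9 RNA-seq libraries, with 1 bar per library and 1 colour per gene. The bars of GMPs (1655 to 1841 TPM) and matNeu cells (1557 to 1838 TPM) are of like height with TPM as deposited, but not with the upper quartile (means of 1328 and 2401 TPM). *Prg2* is the largest part of each GMP bar, and the matNeu bars are almost wholly *Hdc*.

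The labels were checked against markers. *Cd34* was at 470 ± 39.0 TPM in GMPs and near 2 TPM later, *Ngp*, *Ltf* and *Camp* were highest in preNeu cells (71395, 25388 and 10208 TPM) and *Mmp8*, *Mmp9* and *Cxcr2* in matNeu cells (6602, 6539 and 3468 TPM). The primary granule genes *Mpo*, *Elane*, *Prtn3* and *Ctsg* were highest in GMPs (32282, 7314, 2864 and 2886 TPM) and at 4.05, 3.41, 3.70 and 1.01 TPM in matNeu cells, so that genes of the neutrophil path itself also fell to near 0. Markers of other cells also differed. The summed level of 5 macrophage genes was 37.5 to 43.0, 239 to 351 and 98.5 to 140 TPM in GMP, preNeu and matNeu libraries. Each had a mean of 1 TPM or more at every stage, but they did not move alike. *Vcam1* was at 24.9, 186 and 9.81 TPM and *Adgre1* at 12.3, 11.4 and 83.8 TPM at these stages. *C1qa*, *C1qb* and *C1qc* were highest in preNeu cells. The sum of 10 erythroid and megakaryocyte genes was 40.6 to 59.5, 19.3 to 37.1 and 10.8 to 34.4 TPM, with *Hba-a1* and *Hbb-bt* at 0 in GMPs and *Ppbp* at 0 in preNeu cells. The fall of this sum rests on *Itga2b* (33.1 TPM in GMPs and 1.85 in preNeu cells), while the globin genes *Hba-a2* (0.759, 11.3 and 10.8 TPM) and *Hbb-bs* (2.62, 11.3 and 5.97 TPM) were called higher in both later stages than in GMPs. The sum of 5 T and NK cell genes was 460 to 613, 216 to 252 and 8.58 to 16.8 TPM, mostly *Nkg7* in GMP and preNeu libraries, with *Cd3e* at 0 in GMPs and *Klrd1* in preNeu cells. That of 4 dendritic cell genes was 11.4 to 15.1, 2.73 to 3.10 and 10.9 to 15.5 TPM, with *Cd209a* at 0 in GMPs. The like sums of GMP and matNeu libraries came from different genes. In GMPs it was mostly *Flt3* (12.4 TPM), also listed here as a progenitor marker, which was at 0.907 TPM in matNeu cells. In matNeu cells it was mostly *Siglech* (8.84 TPM) and *Cd209a* (2.72 TPM). The part of these markers of other cells in the results was not tested.

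A wider list held 53 genes of proteases, IgE receptor signalling, mediators, eosinophils, receptors and transcription factors, and 40 of them were tested. In matNeu cells against GMPs 12 were higher and 21 lower, against 15 and 17 with the upper quartile and 16 and 11 with median centring, and the median log2 change was -1.27, beside -0.92 over all genes. With TPM as deposited these counts lie near the shares of all genes, 22.8% higher and 54.1% lower, and the counts by role are descriptions. In preNeu cells against GMPs 8 were higher and 23 lower (beside 14.7% and 44.3% of all genes), against 14 and 18 and 14 and 15 with these scalings, and in matNeu against preNeu cells 14 were higher and 8 lower (beside 22.9% and 39.8%), against 15 and 7 and 22 and 4. By role, in matNeu cells against GMPs, 0 of 2 tested proteases were higher and 2 lower, 4 of 7 mediators higher and 2 lower, 1 of 8 eosinophil genes higher and 4 lower, 3 of 7 receptors higher and 3 lower and 1 of 10 factors higher and 7 lower. With median centring these were 0 and 2, 5 and 0, 2 and 3, 3 and 2 and 3 and 3.

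Most proteases known from mature mast cells were at or near 0. Of the 10 listed proteases, 5 were at 0 in every GMP library (*Mcpt1*, *Mcpt9*, *Tpsab1*, *Tpsg1* and *Cma2*, named after their values were seen), and *Cma1*, mast cell chymase, was at 9.42 ± 3.97 TPM in GMPs and listed at 0 in all later libraries. *Gzmb*, granzyme B, was at 30.9 ± 6.05 TPM in GMPs, listed at 0 in preNeu cells and at 0.133 ± 0.230 in matNeu cells. *Cpa3* stood above 200 TPM in the same GMP libraries.

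The receptors moved apart. *Kit*, the stem cell factor receptor, fell from 187 ± 9.01 TPM in GMPs through 56.5 ± 12.3 TPM (preNeu) to 3.11 ± 1.29 TPM (matNeu), and its protein was used for the gates. *Il3ra*, the alpha chain of the receptor for IL-3, a basophil growth factor, was at 35.3 ± 5.04, 15.6 ± 1.77 and 5.59 ± 3.72 TPM. Its fall from GMP to matNeu cells was called under all 3 scalings, and that from GMP to preNeu cells with TPM as deposited alone. The beta chain gene *Csf2rb* rose instead, from 100 ± 12.0 TPM in GMPs to 394 ± 51.9 in matNeu cells (1.96 ± 0.15, adjusted p = 4.98e-07), as did its near-identical neighbour *Csf2rb2*, from 7.74 ± 1.83 to 37.7 ± 7.58 TPM. *Il4ra*, which binds IL-4, rose from 29.5 ± 4.22 to 199 ± 27.2 TPM.

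Among the factors, *Gata2* was at 32.3 ± 16.2 TPM in GMPs, 3.38 ± 0.200 in preNeu and 1.16 ± 1.13 in matNeu cells. *Gata1* was at 13.0 ± 4.25, 0.996 ± 0.508 and 0.189 ± 0.164 TPM. Both were called lower in preNeu cells than in GMPs (-2.77 ± 0.47, adjusted p = 4.76e-04, and -2.79 ± 0.31, adjusted p = 2.59e-05). *Cebpe*, a factor of late granulocytes, peaked in preNeu cells at 525 ± 79.2 TPM, from 31.2 ± 16.3 in GMPs, and was at 44.3 ± 7.75 in matNeu cells. *Cebpa*, *Runx1* and *Stat5a* were lower in preNeu cells than in GMPs (log2 changes of -1.74, -0.86 and -1.71), although *Runx1* was not called with median centring (-0.23, adjusted p = 0.200), and *Stat5b* was higher in matNeu cells than in GMPs (1.26). *Xbp1* was at 466 ± 18.4 and 449 ± 63.0 TPM in GMP and preNeu cells and 179 ± 40.9 in matNeu cells, and *Ndst2*, a heparin-modifying enzyme, was at 17.5 ± 5.63 TPM in GMPs and 6.24 ± 2.49 in matNeu cells. Both changes from GMP to matNeu cells were called with TPM as deposited, but that of *Xbp1* was lost with median centring (-0.01, adjusted p = 0.974) and that of *Ndst2* with both scalings (-0.54, adjusted p = 0.238, and 0.03, adjusted p = 0.942).

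Except for *Fcer1a*, each of the 8 genes had many others that correlated with it, by a measure that ignores the size of a change. Over the 9 libraries, which fall into 3 groups that set most of each correlation, 380 to 2263 of 13060 other genes correlated above r = 0.95 with each of the 8, except *Fcer1a* with 4. The most alike were *Pfdn1*, *1110004F10Rik* and *G6pc3* for *Cpa3* (all r = 0.99), *Dnajc9*, *Tspan32* and *Rtel1* for *Mcpt8* and *Ptar1*, *Smc2* and *Anapc15* for *Prss34*. They were *Canx*, *Ruvbl1* and *Trappc13* for *Ms4a2*, *Nkap*, *Atp13a3* and *Cbfb* for *Fcer1a* (r = 0.98, 0.96 and 0.95), and *Lgals3bp*, *Nolc1* and *Phb2* for *Prg2*. For *Epx* they were *Hsp90ab1*, *Qtrt2* and *Wdr18*, and for *Hdc* *Ankrd33b*, *Sfxn5* and *Sirpb1c*. These correlations are descriptions over 9 libraries.

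In WT GMPs the CHD4 list held 7 peaks within 10 kb of the 8 genes, at *Cpa3* (1), *Ms4a2* (2), *Prg2* (1) and *Hdc* (3), and none at *Mcpt8*, *Prss34*, *Fcer1a* or *Epx*. So 4 of the 8 genes had a peak, beside 32.4% of 21938 protein-coding genes. In *Gfi1*-/- GMPs 0 of the 8 genes had a peak, beside 10.2%, and the closest peak lay 10.6 kb from *Ms4a2* and 50.6 to 1235 kb from the other genes. With 1 library per genotype there is no replicate check, and the *Gfi1*-/- list is shorter, with 7316 peaks against 35790. WT peaks of the same fold enrichment over background as the 7 (4.19 to 10.9) seldom had an overlapping peak in *Gfi1*-/- GMPs either, namely 614 of 23429 or 2.62%, so that 0 of 7 lies close to that share. Over all 35790 WT peaks the share was 18.5%. The published study reports far fewer CHD4 peaks in WT GMPs than this list holds.

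The strongest of the 7 lay 4294 bp downstream of *Prg2* and over the start of *Prg3*, at chr2:84987926-84988423, with a fold enrichment of 10.9, and 30.8% of the WT list had a higher one. The weakest lay 1703 bp upstream of *Cpa3*, at chr3:20243884-20244088, with 4.19, where 96.2% of the list was higher. The peaks at *Ms4a2* (7.36 and 5.80) lay downstream of the gene, 9439 and 3664 bp away, and the nearest start site was that of *Ms4a6d*. At *Hdc*, 1 peak covered the start site, with its summit 26 bp inside the gene (chr2:126618582-126618795, 5.53), and the others lay within the gene 10937 and 16306 bp from the start (5.99 and 6.52).

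The summit sequences are shown for the strongest peak and for the peaks at *Cpa3* and in *Hdc* because each holds the GATA core. They are GRCm38, plus strand, up to 100 bases on either side of the summit, with capitals as before and with bases past the *Prg3* start left out. In windows of 201 bases GATAA or its reverse complement was found at 3 of the 7 peaks, beside 19.4% of 35728 WT peaks. AAATCA and GAGGAAGT were found at 0 of 7, beside 12.1% and 11.8%.
CHD4 summit between Prg2 and Prg3 (chr2:84988024-84988214): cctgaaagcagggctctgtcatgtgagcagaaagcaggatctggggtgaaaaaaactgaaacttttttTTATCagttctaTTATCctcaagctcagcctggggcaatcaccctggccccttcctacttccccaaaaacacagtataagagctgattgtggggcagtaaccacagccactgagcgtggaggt
CHD4 summit upstream of Cpa3 (chr3:20243876-20244076): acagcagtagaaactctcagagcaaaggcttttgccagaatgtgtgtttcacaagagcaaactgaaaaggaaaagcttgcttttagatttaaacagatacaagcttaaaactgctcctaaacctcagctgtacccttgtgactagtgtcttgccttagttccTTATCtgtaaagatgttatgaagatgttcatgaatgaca
CHD4 summit within Hdc (chr2:126602272-126602472): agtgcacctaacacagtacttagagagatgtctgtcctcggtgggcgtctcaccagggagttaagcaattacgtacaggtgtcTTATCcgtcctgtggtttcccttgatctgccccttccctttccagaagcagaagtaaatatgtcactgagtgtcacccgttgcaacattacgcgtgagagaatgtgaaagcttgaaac

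H3K4me2 marks promoters and enhancers that are active or poised. In GMPs 7 peaks lay within 10 kb of the 8 genes, 2 upstream of *Mcpt8* and 5 at *Hdc*, so that 2 of 8 genes had a peak, beside 73.6% of all protein-coding genes. The other 6 genes had none. Of these, 5 genes, *Prg2*, *Cpa3*, *Prss34*, *Epx* and *Ms4a2*, were at 759, 235, 149, 144 and 117 TPM in the same cell type. At a mean of 50 TPM or more in GMPs, 99.3% of 3887 protein-coding genes had an H3K4me2 peak of GMPs within 10 kb and 26 had none, and these 5 were among the 26. By name, many of the others of the 26 were predicted genes or pseudogenes. The level of 50 TPM was chosen after the values were seen. At 10 TPM or more, 83 of 8204 genes had no peak, and at 100 TPM or more 18 of 2037, with the same 5 genes among them. Within 50 kb, 1 of the 7 genes at 50 TPM or more had no peak, and 7 genes in all. With peaks of a −log10 q-value of at least 5 alone, all 7 had none within 10 kb, beside 51.5% of the 3887 genes.

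In preNeu cells 20 peaks lay near 6 of the 8 genes, beside 74.2% of all genes. *Prg2* and *Epx* had 3 each, *Cpa3* 2, *Prss34* 1, *Ms4a2* 4 and *Hdc* 7, while *Mcpt8* had none there. At *Prg2* the strongest lay 4082 bp upstream (fold enrichment 4.70) and another covered the start site (2.78), at *Epx* the strongest lay 5978 bp upstream (3.90), and at *Cpa3* both lay within the gene (2.44 and 2.77). The single peak at *Prss34* lay 2424 bp upstream (2.66). The strongest near *Ms4a2* (12.6), 9578 bp upstream, lay over the neighbour *Ms4a3*, whose start site was nearest.

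In matNeu cells 8 peaks lay near 3 of the 8 genes, beside 72.1% of all genes, with 3 at *Prg2*, 1 at *Epx* and 4 at *Hdc*. *Prg2* and *Epx* thus had peaks in preNeu and matNeu cells, where their RNA was at 14.2 to 17.5 and 2.05 to 4.27 TPM and then at 0 to 0.405 and 0 TPM, and none in GMPs, where it was at 671 to 863 and 120 to 186 TPM. *Mcpt8* was the reverse, with peaks in GMPs (fold enrichment 2.39 and 2.48) and none in preNeu cells at 55.3 to 102 TPM. These peaks of *Mcpt8* were weak, with −log10 q-values of 1.03 and 1.21. Those of *Prg2* and *Epx* in matNeu cells had 1.00 to 3.94, and the strongest in preNeu cells had 7.24 at *Prg2* and 5.02 at *Epx*. Among peaks nearest to the start of 1 of the 7 genes other than *Hdc*, the fold enrichment was at most 2.48, 4.70 and 3.48 in GMP, preNeu and matNeu cells.

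The 3 lists differ in length (37643, 49578 and 44094 peaks), in covered sequence (49.8, 97.9 and 80.4 Mb) and in median fold enrichment (2.89, 4.55 and 3.78), and each is 1 library. Sequence covered near the 8 genes was 5710 bp in GMPs, 35714 in preNeu and 21977 in matNeu cells. Their part in the difference between stages was not tested. With the 37643 best peaks of each list, 7, 12 and 7 peaks were near the 8 genes.

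**Figure D4:**
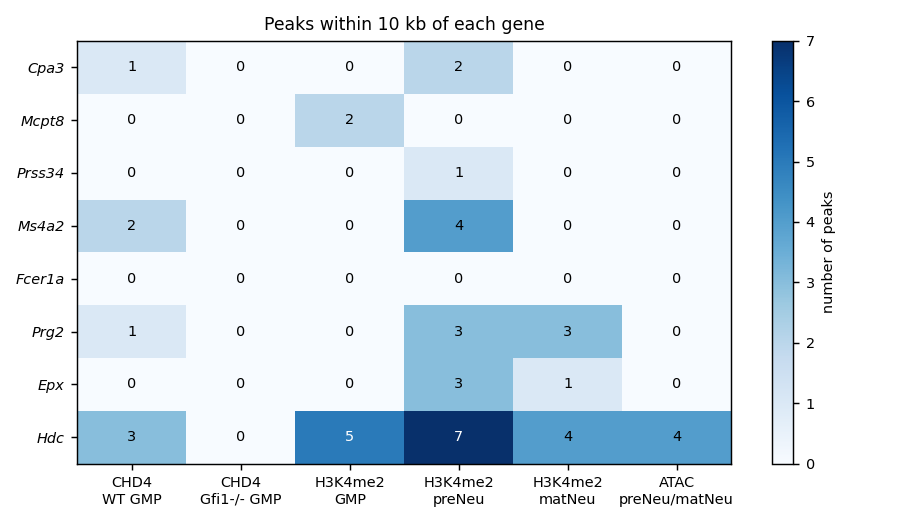
Number of deposited peaks within 10 kb of each of the 8 genes (rows) in each list (columns), 1 library each, with darker blue for more peaks. *Hdc* has 3 to 7 peaks in every list but CHD4 of *Gfi1*-/- GMPs, which has 0 at all 8 genes, and the H3K4me2 column of GMPs is empty for 6 genes.

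*Hdc* was the one gene of the 8 with a peak in every H3K4me2 list and with open chromatin. The peak over its start site had a fold enrichment of 3.47 in GMPs (2563 bp wide), 12.2 in preNeu cells (5628 bp) and 8.78 in matNeu cells (5692 bp), with 25.6, 5.64 and 12.2% of each list above it. Its RNA was 268 ± 17.6, 318 ± 35.4 and 1697 ± 139 TPM at these stages (SD, n = 3), so the RNA and this fold enrichment did not have the same order. For preNeu and matNeu cells the deposited ATAC-seq peaks were the same and counted as 1 list, and the stage it comes from is not known. This list held 4 peaks at *Hdc*, 1 over the start site (3.67), and none near the other 7 genes, so that 1 of 8 genes had a peak beside 52.9% of all genes. All 3 CHD4 peaks of WT GMPs at *Hdc* overlapped H3K4me2 peaks at each stage, and 2 of the 3 overlapped an ATAC-seq peak. Of the 4 CHD4 peaks at the other genes, 0 overlapped an H3K4me2 peak of GMPs or an ATAC-seq peak. The peak near *Prg2* overlapped H3K4me2 peaks of preNeu (3.27) and matNeu cells (2.84), and 1 of those near *Ms4a2* overlapped one of preNeu cells (2.70).

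**Figure D5:**
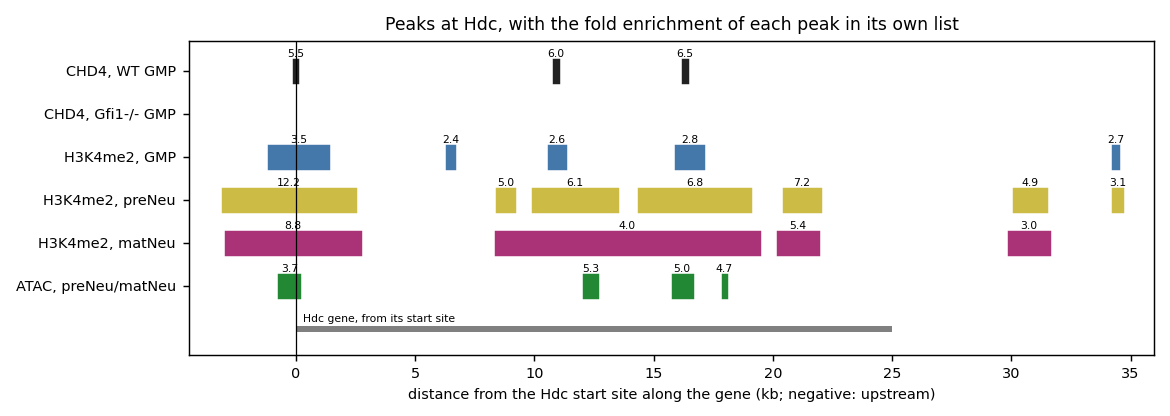
Peaks within 10 kb of *Hdc* in each list, drawn by distance in kb from its RefSeq start site along the gene, with the fold enrichment of each peak in its own list above it and the gene as a grey line. CHD4 peaks of WT GMPs (5.5, 6.0 and 6.5) share their positions with H3K4me2 peaks of all stages, and the start-site peak is 3.5 in GMPs, 12.2 in preNeu and 8.8 in matNeu cells.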

How the data were processed

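Gene levels were deposited by the authors in TPM for each library. Peaks were deposited with a fold enrichment (a ratio on the linear scale) and a −log10 q-value from the authors' peak caller. Per the submitters' processing notes, kallisto 0.44.0, Trimmomatic 0.36, BWA 0.7.17 and MACS2 2.1.0 were used, while the methods name Tophat and HTSeq for RNA-seq. TPM keeps no depth, so that depth is unknown and a count test was not possible. Groups follow the sample titles, because the cell type label differs from the title in 13 of 18 samples. Lists for GFI1 and H3K4me3 did not match mouse chromosomes and were not used here.

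The 13061 genes that reached 1 TPM in 3 or more of the 9 libraries were fitted with limma 3.58.1 (R 4.3.3) on log2(TPM + 1), with cell type as the one term and a variance trend. Benjamini-Hochberg adjustment covered all of them, at a threshold of 0.05. Fold changes on this scale understate the change of low genes. The fitting code was first tested on simulated data. Peaks were counted within 10 kb of the GENCODE M21 gene (GRCm38), with an overlap of at least 1 bp, and start sites are those of RefSeq, with GENCODE for *Prg2*. Sequences were read with samtools 1.23.1, and tables and plots were made with Python 3.11.15, pandas 2.3.3, numpy 2.4.6 and matplotlib 3.10.9. Alternatives were a pseudocount of 0.1, other filters, 2 scalings, fits of 2 cell types alone, without a trend and with a replicate block, a minimum log2 change of 1, leaving out each library, a −log10 q-value of at least 5, windows of 2 and 50 kb, summits within 200 bp and lists of equal length.

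Named were all 8 genes, genes of the wider lists with a mean of at least 10 TPM in a cell type plus *Gata1*, *Gata2*, *Kit*, *Fcer1g*, *Il5ra*, *Csf2rb*, *Ear1*, *Ear2* and *Cma1*, the 3 genes most correlated with each of the 8, and the strongest peak per gene. The 8 genes, lists and tests were chosen with earlier results of these data known. One marker list of other cells is not reported here.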

Additional observations from a re-analysis of the deposited data

How the results depend on the processing

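Over all alternatives, 397 refitted changes of single genes kept direction and side of the threshold, 4 gained a call, 2 lost one and 5 changed sign. The sign changes were of uncalled differences from GMP to preNeu cells: *Mcpt8* 0.26 with median centring and 0.11 with the upper quartile, *Fcer1a* 0.49 and 0.25, and *Fcer1a* 0.21 without preNeu replicate 2, in a range from -0.35 to 0.21 over the fits without each library. The number of the 8 genes called ranged from 4 to 5, 7 to 8 and 7 to 8 over the alternatives, and from 4 to 5, 8 to 8 and 8 to 8 without each library. Of the wider list 27 to 35 were called. With the replicate number as a block, 4, 8 and 8 of the 8 genes and 35 of the wider list were called. The deviations of libraries with the same number had r from -0.04 to 0.12 over the 9 pairs, and those with different numbers -0.13 to 0.07. With 3 libraries of each cell type, this cannot show whether the numbers pair them by mouse or batch.

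The summed TPM of the 8 genes moved with the upper quartile to 1328 in GMPs and 2401 in matNeu cells, and without *Hdc* to 1506, 417 and 6.71 in GMP, preNeu and matNeu cells. CHD4 peaks of WT GMPs numbered 4 within 2 kb and 35 within 50 kb, and those of *Gfi1*-/- GMPs 5 within 50 kb. H3K4me2 peaks numbered 32, 41 and 29 within 50 kb in GMP, preNeu and matNeu cells, 10 and 4 within 2 kb in preNeu and matNeu cells, 0, 9 and 3 at a −log10 q-value of at least 5, and 12 in preNeu cells with lists of equal length. Of the 7 of the 8 genes with at least 50 TPM in GMPs, 1 had no H3K4me2 peak within 50 kb, an alternative that was chosen after seeing the data. The causes were not tested. Depth is unknown, and each peak list is 1 library, so that a missing peak is no absence of the mark.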

Other observations

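The absence of an H3K4me2 peak in GMPs extended to some genes of the wider list. *Gzmb* (30.9 TPM in GMPs), *Ear6* (21.8), *Ear1* (14.7), *Gata1* (13.0) and *Cma1* (9.42), chosen here after their values were seen, had none within 10 kb. Most genes of the wider list between 9.42 and 50 TPM in GMPs did have one. Among them were *Prg3* (49.0), *Siglecf* (45.3), *Gata2* (32.3), *Slc18a2* (30.4), *Cebpa* (20.4) and *Ear2* (18.0). All 10 genes of the wider list with at least 50 TPM in GMPs had one, among them *Srgn* (1538 TPM), *Xbp1* (465.6) and *Kit* (187). Of the 53 genes of the wider list, 31 had a CHD4 peak of WT GMPs within 10 kb and 12 one of *Gfi1*-/- GMPs, beside 32.4% and 10.2% of all protein-coding genes. Of the 8 genes 4 and 0 did, and the difference between the lists was not tested. *Lyn*, *Runx1* and *Siglecf* were among the 12.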
